A study of Mus musculus with 14 samples.

Results

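The extracellular matrix of the heart is made by a few cell types, chiefly fibroblasts, and 43 genes of its non-collagen part and of the fibroblast itself are described in mouse hearts with and without an intact Sqstm1 gene, which encodes the autophagy receptor p62, in cardiac muscle. The genes were chosen by name as a module of matrix and fibroblast genes. All 43 were found among the 55487 rows of the deposited count table by their Ensembl identifiers and GENCODE M21 symbols, and all 43 passed the filter on low counts that left 15528 genes. Whole hearts of untreated male C57BL/6 mice were used. The knockout (KO) carried Myh6-Cre and Sqstm1fl/fl alleles, and the control was labelled wildtype (WT). Hearts were taken at 15 months (4 KO and 4 WT) and at 2 months (3 KO and 3 WT), 1 library per labelled sample. Cre driven by the Myh6 promoter is active in cardiac muscle cells, so fibroblasts were not the cells in which Sqstm1 was targeted. The counts do not show which cells made each transcript. The labels do not say whether a heart was prepared alone or which allele state the WT mice had, and the p-values below measure the spread between these libraries.

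In the heart, fibroblasts secrete fibronectin, proteoglycans and matricellular proteins into the space between muscle cells, while muscle, endothelial and mural cells each lay down a basement membrane of laminins, nidogens and heparan sulfate proteoglycans. Matricellular proteins such as periostin, the thrombospondins, tenascin C and Sparc are not mainly structural. They tune how cells bind to the matrix, how collagen is assembled and how growth factors such as TGF-beta are released, and many of them are induced by injury and mechanical load. The matrix is cut by metalloproteases, which are held in check by the Timp proteins. Latent TGF-beta binding proteins anchor inactive TGF-beta in this network.

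Total counts ranged from 20218992 to 30404416 per library. Sqstm1 itself was at 14.7 to 37.0 CPM (counts scaled to a common TMM-adjusted library total) in the KO hearts of both ages and at 139 to 238 CPM in the WT hearts. In a bulk measurement of a whole heart, fewer cells of a type and less RNA per cell cannot be told apart. The fibroblast identity genes were measured in every library. Pdgfra, a growth factor receptor used as a fibroblast marker, was at 15.9 to 52.3 CPM, and Tcf21, a transcription factor of resident cardiac fibroblasts, was at 2.01 to 7.64 CPM.

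Levels of the 43 genes spanned a wide range once divided by exon length. On the scale of CPM per kb of exon, averaged over the 14 libraries, 15 genes were at 10 or more, 23 were between 1 and 10, and 5 were below 1. Gsn, which encodes the actin-severing protein gelsolin, was highest at 190 CPM per kb and made up 25.8% of the summed level. Sparc followed with 65.6, the small proteoglycan Dcn with 62.3, the Sparc relative Sparcl1 with 52.8 and the collagen-associated protein Dpt with 47.1 CPM per kb. Those 5 genes together held 56.7% of the summed level. The basement membrane was led by Lamb2, a laminin chain, with 38.0 CPM per kb and Hspg2, which encodes perlecan, with 25.8 CPM per kb. Spp1 (osteopontin) at 0.203 and Tnc (tenascin C) at 0.162 CPM per kb were the last of the 43 in the order.

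**Figure D1:**
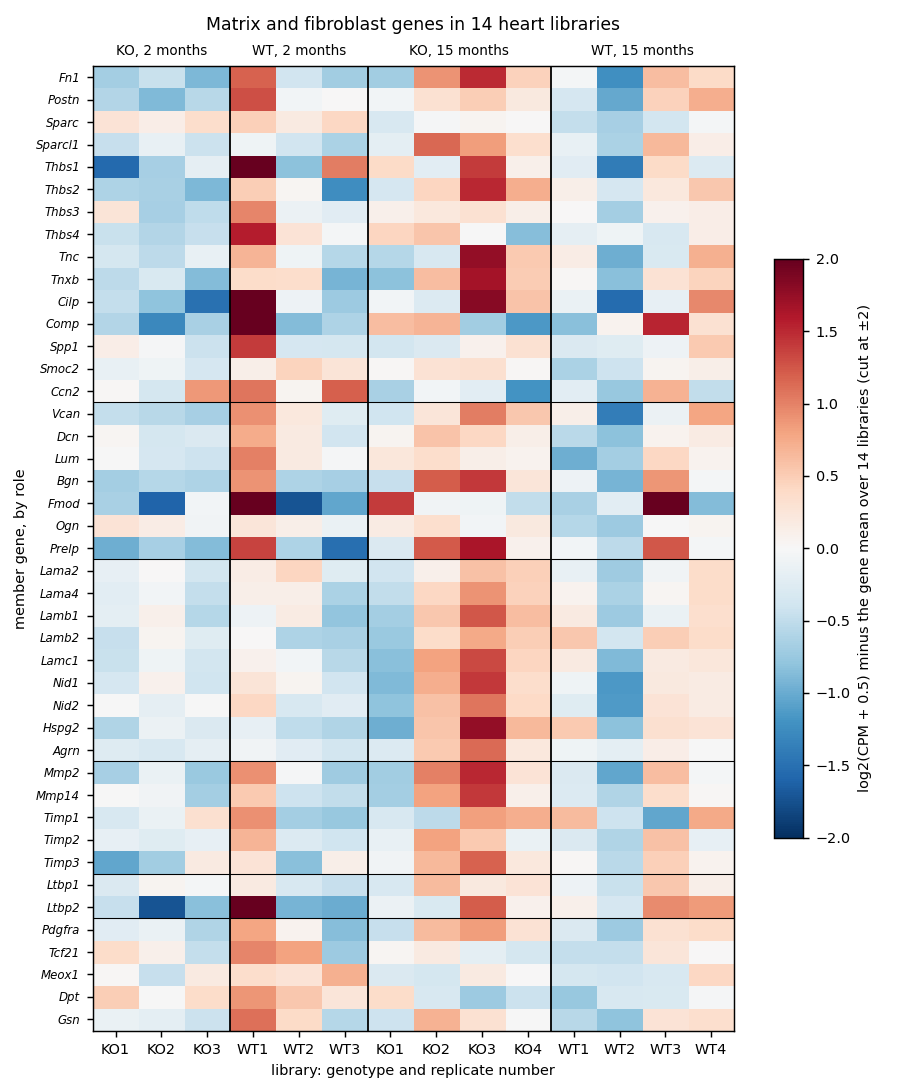
Each row is 1 of the 43 genes, grouped by role, and each column is 1 of the 14 libraries, grouped by genotype and age; color is log2(CPM + 0.5) minus the gene's mean over the libraries. WT replicate 1 at 2 months and KO replicate 3 at 15 months are red over most rows, and WT replicate 2 at 15 months is blue over most rows.

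The libraries of a group did not all carry the same amount of matrix transcript, and 4 of them are set out below. A member score, the mean of log2(CPM + 0.5) over the 43 genes relative to the mean of all genes tested, is used here only as a description. At 2 months the score was 1.27, 1.25 and 1.24 in the KO hearts and 2.42, 1.42 and 1.22 in the WT hearts. WT replicate 1 was the highest of the 6 libraries in 34 of the 43 genes, whereas it was highest in 3110 of the 15528 genes tested. Its level was above the mean of the other 5 libraries in all 43 genes, with a median fold of 1.91 and a range of 1.04 to 45.0. At 15 months the score was 1.34, 2.01, 2.38 and 1.78 in KO replicates 1 to 4, and 1.46, 0.934, 1.92 and 1.82 in WT replicates 1 to 4. KO replicate 3 was highest of the 8 libraries in 27 of the 43 genes, and in 3264 of the 15528 genes tested. WT replicate 2 was lowest in 29 of the 43 genes, and in 3078 of the 15528. KO replicate 1 was below the mean of the other 7 libraries in 33 genes and above it in 10. It was lowest of the 8 libraries in 5 of the 43 genes, and in 2749 of the 15528.

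Markers of atrial muscle, of fat cells and of cartilage, tendon and valve were high in WT replicate 1 at 2 months. Its smooth muscle and mural cell markers summed to 1050 CPM, against 1171 and 1169 CPM in WT replicates 2 and 3. Its macrophage markers summed to 365 CPM, against 426 and 379 CPM, and its endothelial markers to 408 CPM, against 303 and 289 CPM. The summed level of the 4 atrial muscle markers (Myl7, Myl4, Sln and Bmp10) was 1.46 to 2.04 CPM in the KO hearts at 2 months, against 1270 CPM in WT replicate 1 and 0.889 and 1.49 CPM in the other WT hearts of that age. Bmp10 was at 0 in the 5 libraries other than WT replicate 1, and Sln in 4 of them. At 15 months the sum was 109 CPM in KO replicate 1 and 1.15 to 2.50 CPM in the other KO hearts, against 148, 27.0, 1.95 and 48.9 CPM in WT replicates 1 to 4. The 4 fat cell markers summed to 0.443 to 1.67 CPM in the KO hearts at 2 months, to 36.1 CPM in WT replicate 1, and to 0.537 and 0.618 CPM in the other WT hearts. The 9 markers of cartilage, tendon and valve summed to 4.79 to 6.92 CPM in the KO hearts, to 31.4 CPM in WT replicate 1, and to 8.54 and 9.16 CPM in the other WT hearts. At 15 months the atrial sum did not follow the member score, being highest in WT replicate 1 and at 2.50 CPM in KO replicate 3. The part these tissues had in the matrix levels was not tested. The share of counts from mitochondrially encoded genes was 46.0%, 32.8%, 27.5% and 38.0% in KO replicates 1 to 4 at 15 months, the reverse order of the member score, against 32.0%, 29.4%, 28.4% and 32.6% in WT replicates 1 to 4. At 2 months it was 31.4% to 39.1% in KO hearts and 29.0% to 40.7% in WT hearts, with 31.8% in WT replicate 1. Its part in the matrix levels was not tested. The libraries also differed in how strongly counts followed transcript length. The length slope of a library is the slope, over genes, of log2 CPM centred on each gene's mean against log2 exon length. It was -0.149 to -0.0417 in KO and -0.185 to -0.0110 in WT at 2 months, and -0.0845 to 0.243 in KO and -0.0667 to 0.126 in WT at 15 months. The member score and the length slope were both highest at 15 months in KO replicate 3, and KO replicate 1 and WT replicate 2 were the only libraries of that age with a slope below 0.

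**Figure D2:**
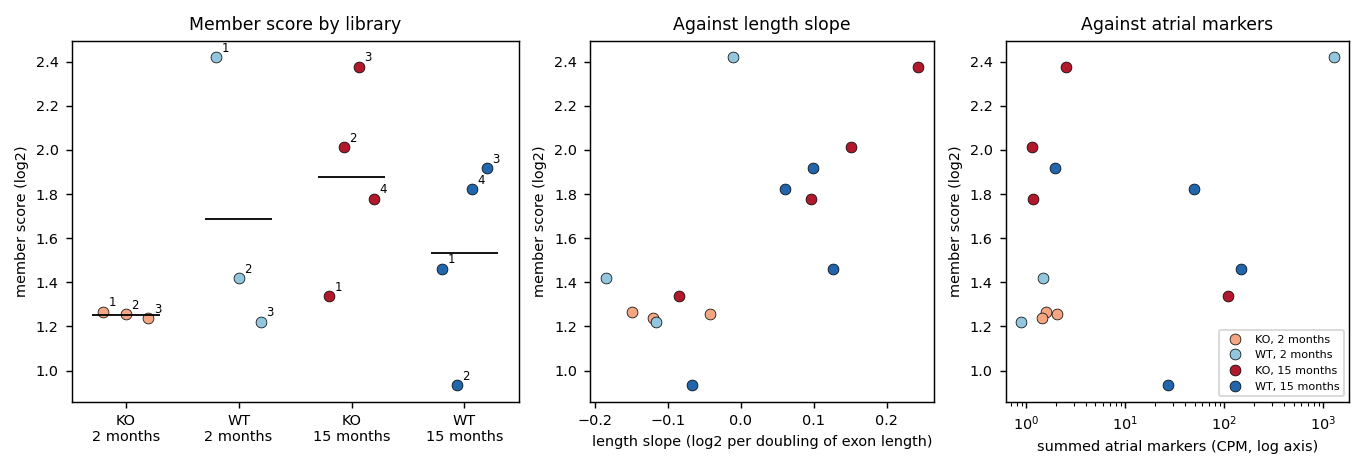
Left, the member score (log2) of each library by group, with the replicate number and a line at the group mean; middle and right, the same score against the length slope of the library and against the summed atrial markers (CPM, log axis). The highest score, 2.42, belongs to the WT library with 1270 CPM of atrial markers, and the next, 2.38, to the KO library with the highest slope, 0.243.

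The promoters of 30 of the 43 genes were in the RefSeq table used here (GRCm38.p6), as 37 windows. The 250 bases before the RefSeq start are shown for 4 genes. They are the genes with the smallest p in the KO to WT comparison at 2 months (Thbs4) and at 15 months (Ogn), and with age in KO hearts (Thbs2) and in WT hearts (Sparc). Capitals mark 3 motifs, searched on both strands. The first is TATAAA, the letters of a TATA box. The second is CCAAT, the core bound by NF-Y. The third is GGGCGG, the core bound by Sp1.
Thbs4, chr13:92794819-92795068 (minus strand): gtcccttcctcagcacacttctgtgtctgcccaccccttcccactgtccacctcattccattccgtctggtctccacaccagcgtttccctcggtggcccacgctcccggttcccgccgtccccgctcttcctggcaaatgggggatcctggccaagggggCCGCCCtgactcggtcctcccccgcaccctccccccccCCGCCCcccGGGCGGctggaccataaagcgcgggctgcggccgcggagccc
Ogn, chr13:49607765-49608014 (plus strand): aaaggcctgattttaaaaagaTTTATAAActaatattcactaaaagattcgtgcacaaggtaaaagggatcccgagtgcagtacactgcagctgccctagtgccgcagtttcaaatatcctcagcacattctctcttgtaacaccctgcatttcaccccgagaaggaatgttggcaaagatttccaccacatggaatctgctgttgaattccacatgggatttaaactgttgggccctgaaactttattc
Thbs2, chr17:14694263-14694512 (minus strand): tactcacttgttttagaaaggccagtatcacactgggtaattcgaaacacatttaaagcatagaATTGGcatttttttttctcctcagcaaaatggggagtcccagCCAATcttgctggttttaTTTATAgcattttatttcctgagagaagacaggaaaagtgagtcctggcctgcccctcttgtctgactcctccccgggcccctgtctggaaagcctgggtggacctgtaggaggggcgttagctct
Sparc, chr11:55420081-55420330 (minus strand): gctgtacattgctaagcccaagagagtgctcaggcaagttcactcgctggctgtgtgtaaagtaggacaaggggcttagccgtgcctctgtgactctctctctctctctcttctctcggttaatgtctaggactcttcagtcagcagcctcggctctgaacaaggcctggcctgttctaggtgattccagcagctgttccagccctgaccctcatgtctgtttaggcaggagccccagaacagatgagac
The Thbs4 window held GGGCGG in 3 places and had a GC content of 70.8%, against a median of 52.4% over all 32851 windows. The Ogn window held TATAAA in 2 overlapping places far from the start and had a GC content of 42.0%. The Thbs2 window held TATAAA once and CCAAT in 2 places, and the Sparc window held none of the 3 motifs. The Sparc window lay inside the gene as annotated in GENCODE M21 (bases 55394500 to 55423183). It is thus not the sequence before the start in that annotation. Across the members' windows, GGGCGG was present in 51.4%, against 32.7% of all windows. TATAAA was present in 16.2% of the members' windows, against 12.4% of all, and CCAAT in 35.1%, against 33.8%. The 5 members with TATAAA in a window were Ogn, Postn, Spp1, Thbs2 and Tnc, which encode 4 secreted glycoproteins and 1 small proteoglycan.

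At 2 months, most matrix genes were lower in KO than in WT hearts, but none passed the test, and the difference rested largely on 1 WT library. Of the 43 genes, 38 had a log2 fold change below 0 and 5 above, with a median of -0.54 (all genes tested, -0.0015). No member was called by edgeR's quasi-likelihood test with Benjamini-Hochberg adjustment, where 0.00644% of all genes were called. The single gene called was Sqstm1. An unadjusted p under 0.05 was reached by 10 members, 23.3% against 3.18% of all genes. DESeq2 and limma voom also called 0 members, where they called 0.0451% and 0.00644% of all genes. Without WT replicate 1, 26 were below 0 and 17 above, the median was -0.04, and 1 member had an unadjusted p under 0.05, 2.33% against 3.10% of all genes.

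Among the matricellular proteins, the groups did not overlap for Thbs4, Postn and Smoc2. Thbs4, a thrombospondin that also acts inside cardiac muscle cells under stress in mice, was at 3.33, 2.97 and 3.28 CPM in KO hearts, against 15.0, 5.79 and 4.60 CPM in WT hearts. WT replicate 1 was far above the other libraries, and all 3 KO libraries were below all WT libraries. On the log2 scale the difference was -1.41 ± 0.42 with all libraries (SE; edgeR quasi-likelihood adjusted p = 0.9997), and -0.69 ± 0.35 without WT replicate 1. Postn, which encodes periostin, a marker of activated cardiac fibroblasts, was at 15.6, 12.6 and 16.0 CPM in KO hearts, against 58.7, 22.9 and 23.8 CPM in WT hearts. Here too every KO library was below every WT library, and WT replicate 1 was far above the rest. The log2 fold change of Postn was -1.2596 ± 0.41 (SE; edgeR quasi-likelihood adjusted p = 0.9997), and -0.66 ± 0.37 without that library. Smoc2, a calcium-binding relative of Sparc, was at 40.3, 41.7 and 35.3 CPM in KO hearts, against 48.2, 60.7 and 53.4 CPM in WT hearts. WT replicate 1 was the lowest WT library for Smoc2, and its log2 fold change was -0.47 ± 0.19 with it and -0.54 ± 0.21 without it. Smoc2 was the single member with an unadjusted p under 0.05 in both settings.

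For several of the largest differences at 2 months, WT replicate 1 was far above the other libraries. Comp, a cartilage and tendon thrombospondin, was at 1.11, 0.488 and 1.05 CPM in KO hearts, against 26.8, 0.836 and 1.08 CPM in WT hearts. Its log2 fold change was -3.44 ± 1.20 with all libraries and -0.13 ± 0.86 without WT replicate 1. Fmod, a small proteoglycan of tendon that binds collagen, was at 0.556, 0.0443 and 1.09 CPM in KO hearts, against 18.0, 0 and 0.309 CPM in WT hearts. The fold change of Fmod turned from -3.42 ± 1.70 to 1.66 ± 1.79 on the log2 scale when that library was left out. Ltbp2, a microfibril protein that does not bind latent TGF-beta, was at 1.67, 0.399 and 1.17 CPM in KO hearts, against 16.4, 1.07 and 1.005 CPM in WT hearts. Without WT replicate 1 its log2 fold change was 0.05 ± 0.67, compared with -2.54 ± 0.94 with it. Cilp, a matrix protein made by cardiac fibroblasts in mice, was at a log2 fold change of -2.22, and at -0.53 without the library. Thbs1, a thrombospondin that activates latent TGF-beta, was at 4.75, 9.22 and 13.1 CPM in KO hearts, against 62.7, 8.24 and 30.8 CPM in WT hearts. WT replicate 3 was thus also above all KO libraries, and the log2 fold change of Thbs1 was -1.91 with all libraries and -1.11 without WT replicate 1. For Spp1, a glycoprotein of macrophages and injured tissue, the values were -1.41 and 0.94, on levels of 0.0809 to 1.55 CPM.

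By role, the median log2 fold change was -0.72 for the matricellular genes, -0.71 for the proteoglycans and -0.28 for the proteases and inhibitors. The 9 basement membrane genes had a median of -0.05 and a range of -0.31 to 0.20, and Lama2, the laminin chain typical of muscle, was at the low end. Among the proteoglycans, Vcan, a large aggregating proteoglycan, was at 13.7, 13.1 and 11.97 CPM in KO hearts, against 37.1, 22.4 and 16.2 CPM in WT hearts, and the groups did not overlap. Its log2 fold change was -0.97 ± 0.45, and Lum, a collagen-binding proteoglycan, and Dcn were at -0.71 ± 0.32 and -0.44 ± 0.29. Without WT replicate 1, Vcan was at -0.57, Lum at -0.32 and Dcn at -0.11. The other proteoglycans were then above 0, Bgn at 0.02, Ogn at 0.13, Prelp at 0.20 and Fmod at 1.66. All 5 genes of proteases and inhibitors were below 0, between -0.73 for Mmp2, a gelatinase, and -0.11 for Timp1. Without WT replicate 1, Mmp2 was at -0.15 and Timp1 at 1.14. Fn1, which encodes fibronectin, was at -0.97 ± 0.57 and at -0.13 ± 0.53 without WT replicate 1. Ccn2, a matricellular target of TGF-beta and Yap signalling, was at -0.58 ± 0.42 and -0.45 ± 0.48. The 5 fibroblast genes were all below 0, with a median of -0.54, from -0.70 for Gsn to -0.28 for Dpt. Without WT replicate 1, Pdgfra was at 0.03 and Tcf21 at -0.20. The groups did not overlap for Meox1, a transcription factor induced in stressed fibroblasts, which was at 9.14, 6.43 and 10.3 CPM in KO hearts, against 11.7, 11.04 and 15.1 CPM in WT hearts. In all, 5 members (Postn, Thbs4, Smoc2, Vcan and Meox1) were lower in every KO than in every WT library, which is 11.6% of the 43 against 3.72% of all genes. No member was higher in every KO library, where 4.43% of all genes were.

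**Figure D3:**
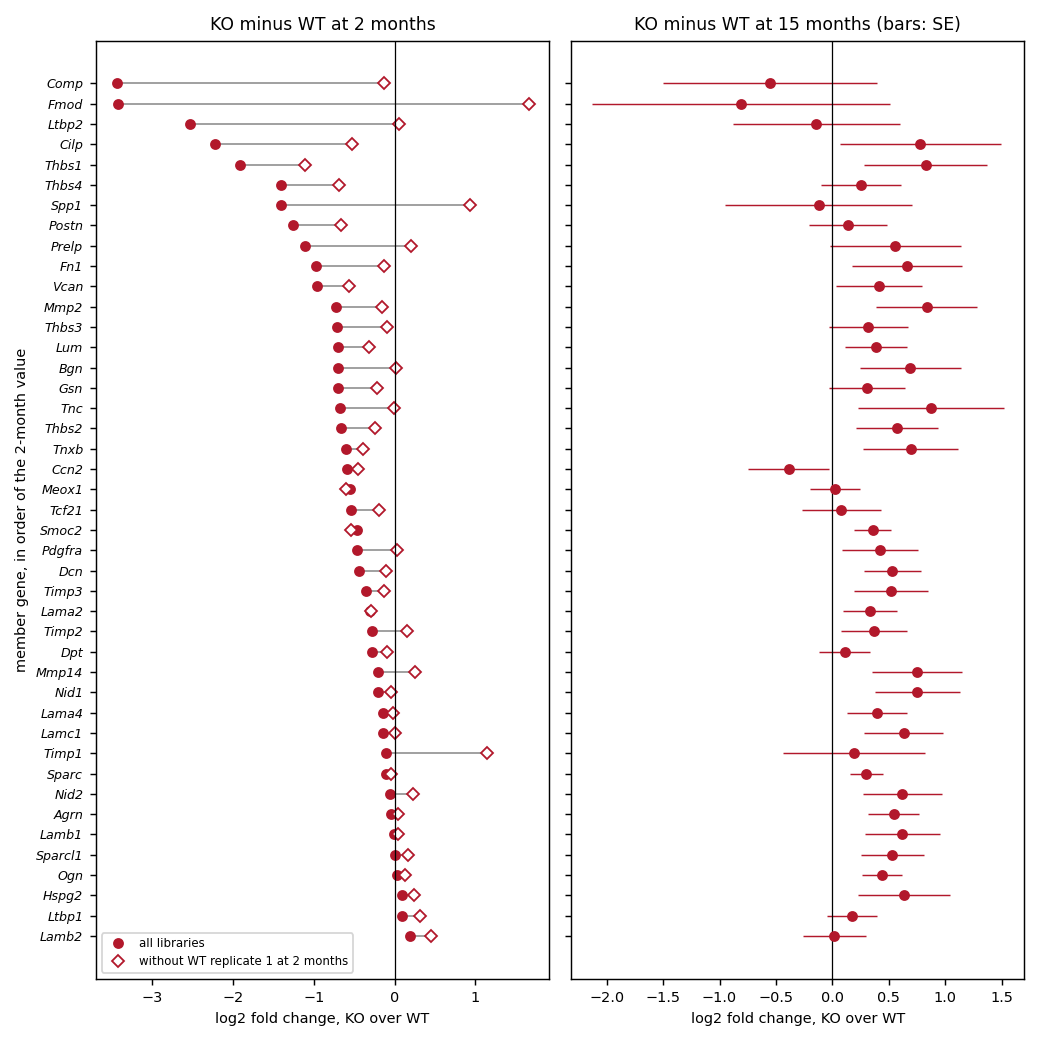
Log2 fold changes of the 43 genes, KO over WT; left at 2 months with all libraries (filled) and without WT replicate 1 (open), right at 15 months with bars of 1 SE. The filled points reach -3.44 at 2 months, while the open points have a median of -0.04, with Thbs1 at -1.11 and Fmod at 1.66. At 15 months 38 of the 43 points lie above 0.

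At 15 months most genes had the opposite sign. Of the 43 genes, 38 had a log2 fold change above 0 in KO relative to WT hearts and 5 below, with a median of 0.41 (all genes tested, 0.0083). With the length slope of each library as a term in the edgeR model, the median was 0.22, with 35 above 0. No member was called by edgeR's quasi-likelihood test with Benjamini-Hochberg adjustment, where 0.00644% of all genes were called, again Sqstm1 alone. No member was higher in every KO library, where 0.760% of all genes were, and none was lower in every KO library, where 1.23% were. An unadjusted p under 0.05 was reached by 3 members, 6.98% against 3.97% of all genes. DESeq2 and limma voom called 0 members, and 0.0451% and 0.00644% of all genes. Leaving out KO replicate 1, the lowest KO library, gave a median of 0.60 and 17 members under that p, 39.5% against 11.2% of all genes. Leaving out KO replicate 3, the highest, gave a median of 0.25, with 34 above 0 and 1 member under that p. Leaving out WT replicate 2, the lowest WT library, gave a median of 0.26, with 33 above 0 and 0 members under that p.

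With all libraries, the 3 members with an unadjusted p under 0.05 were Ogn, Agrn and Smoc2. Ogn, a small proteoglycan also called osteoglycin or mimecan, was at 127, 141, 109 and 129 CPM in KO hearts, against 75.3, 68.0, 112 and 117 CPM in WT hearts. KO values lay close together, and the overlap came from WT replicates 3 and 4. The KO effect on Ogn was 0.44 ± 0.18 on the log2 scale (SE; edgeR quasi-likelihood adjusted p = 0.999). Agrn, the heparan sulfate proteoglycan agrin, was at 12.7, 22.4, 34.7 and 18.0 CPM in KO hearts, against 14.6, 13.4, 17.1 and 15.4 CPM in WT hearts. KO replicate 1 was the lowest of the 8 libraries for Agrn, and the other 3 KO libraries were above all WT libraries. The log2 fold change of Agrn was 0.54 ± 0.22 (SE; edgeR quasi-likelihood adjusted p = 0.999). Smoc2 was at 45.0, 54.3, 55.5 and 45.3 CPM in KO hearts, against 28.4, 33.2, 46.3 and 48.4 CPM in WT hearts, a log2 fold change of 0.36 ± 0.16.

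The basement membrane genes were above 0 in 9 of 9 cases, with a median of 0.62, from 0.02 for Lamb2 to 0.75 for Nid1, which encodes the linker protein nidogen 1. Hspg2 was at 163, 473, 1095 and 506 CPM in KO hearts, against 461, 182, 404 and 392 CPM in WT hearts. KO replicate 1 was the lowest library and KO replicate 3 was the highest, with WT values between them. The log2 fold change of Hspg2 was 0.64 ± 0.41 (SE; edgeR quasi-likelihood adjusted p = 0.999). With the length slope as a term Hspg2 was at 0.13 ± 0.18 and Lamb2 at -0.24 ± 0.11, and the other basement membrane genes stayed above 0. Endothelial markers moved in the same libraries. All 7 of them had a fold change above 0 at 15 months (median 0.56), none was at 0 in any library, and their summed level was 321, 789, 1163 and 704 CPM in KO hearts, against 525, 323, 585 and 543 CPM in WT hearts. Their part in the basement membrane levels was not tested.

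In the remaining groups, all 5 protease and inhibitor genes were above 0, with Mmp2 at 0.84 ± 0.45 and the membrane-bound protease Mmp14 at 0.75 ± 0.40. Of the 7 proteoglycans 6 were above 0, and Fmod was below, at -0.81 ± 1.32. Of the 15 matricellular genes 12 were above 0, led by Tnc at 0.87 ± 0.65 and Thbs1 at 0.83 ± 0.55. Fn1 was at 0.66 ± 0.49, Postn at 0.14 ± 0.35 and Thbs4 at 0.26 ± 0.35. Comp, Spp1 and Ccn2 were the 3 below 0, at -0.55 ± 0.95, -0.12 ± 0.83 and -0.39 ± 0.36. All 5 fibroblast genes were above 0, with Pdgfra at 0.42 ± 0.34, Gsn at 0.30 ± 0.34, Tcf21 at 0.08 ± 0.35, Dpt at 0.11 ± 0.23 and Meox1 at 0.02 ± 0.22 on the log2 scale.

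With age, KO hearts had higher values for most matrix genes. Comparing 15 with 2 months in KO, 38 of the 43 genes had a log2 fold change above 0 and 5 below, with a median of 0.77 (all genes tested, 0.0058). No member was called by edgeR's quasi-likelihood test with Benjamini-Hochberg adjustment, where 2.25% of all genes were called, and 16 had an unadjusted p under 0.05, 37.2% against 26.7% of all genes. By DESeq2 7 members were called (Fn1, Sparcl1, Thbs2, Tnxb, Bgn, Agrn and Timp3), 16.3% against 10.4% of all genes. By limma voom 0 members were called, where 3.12% of all genes were. The groups did not overlap, with the 15-month hearts higher, for 11 members, 25.6% of the 43 against 8.83% of all genes. They did not overlap, with the 15-month hearts lower, for Sparc alone, 2.33% of the members against 11.3% of all genes. The calls depended on the libraries and settings used. Thbs2 alone was called without WT replicate 3 at 2 months, where 288 of 16133 genes were called. Postn alone was called when only the groups compared were fitted, where 134 of 14757 genes were called. Without KO replicate 1 at 15 months, edgeR called 16 members, 15 of them higher and Dpt lower, which is 37.2% of the members against 22.6% of all genes.

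Thbs2, a thrombospondin that binds proteases and limits vessel growth, had the smallest p. It was at 19.3, 33.0, 69.9 and 40.8 CPM at 15 months, against 15.8, 15.4 and 12.9 CPM at 2 months. Every aged KO library was above every young one, and KO replicate 1 was the nearest to them. The log2 fold change of Thbs2 was 1.48 ± 0.41 (SE; edgeR quasi-likelihood adjusted p = 0.0659). Bgn, the proteoglycan biglycan, was at 61.2, 196, 224 and 99.6 CPM at 15 months, against 52.5, 56.2 and 54.3 CPM at 2 months. Its groups did not overlap either, and Bgn was at 1.42 ± 0.50 on the log2 scale (SE; edgeR quasi-likelihood adjusted p = 0.105). Timp3, the inhibitor that stays bound to the matrix, was at 172, 283, 407 and 209 CPM at 15 months, against 87.3, 112 and 203 CPM at 2 months. One young library, KO replicate 3, lay above the lowest aged one, and its change was 0.999 ± 0.36 on the log2 scale (SE; edgeR quasi-likelihood adjusted p = 0.112).

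Agrn had an age-related log2 fold change of 0.77 ± 0.25 in KO hearts and Sparcl1 of 0.96 ± 0.31, with adjusted p = 0.0890 and 0.0925 by edgeR's quasi-likelihood test. Fn1 was at 1.43 ± 0.55, Postn at 0.95 ± 0.39, Thbs1 at 1.29 ± 0.61, Thbs4 at 0.70 ± 0.40 and Comp at 1.20 ± 1.14. Dcn was at 0.50 ± 0.27, Lama2 at 0.41 ± 0.26, Timp1 at 0.43 ± 0.69 and Pdgfra at 0.72 ± 0.37. The 11 members whose aged KO libraries all lay above the young ones were Postn, Thbs2, Cilp, Smoc2, Vcan, Dcn, Lum, Bgn, Prelp, Timp2 and Ltbp2, of which 5 are proteoglycans of 7 measured. By contrast, no basement membrane gene was free of overlap, because KO replicate 1 at 15 months was within or below the young range for all 9. The 5 members below 0 were Ccn2 at -0.75 ± 0.39, Dpt at -0.52 ± 0.24, Sparc at -0.32 ± 0.16, Tcf21 at -0.12 ± 0.38 and Meox1 at -0.04 ± 0.24.

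Differences with age, and between the genotypes at 15 months, went with transcript length. Across the 43 genes, Spearman's rho between exon length and log2 fold change was 0.40 for age in KO hearts, 0.49 for age in WT hearts and 0.40 for KO against WT at 15 months, as a description, since all genes share the same libraries. For age in KO hearts, the 24 genes of 5 kb or more had a median of 0.92 and the 19 shorter ones a median of 0.45. For age in WT hearts these medians were -0.08 and -0.65. With the length slope of each library as a term in the edgeR model, the median of the 43 with age in KO hearts became -0.13 and 16 genes were above 0, so the direction of the group as a whole turned. Thbs2 was then at 0.48 ± 0.45, Bgn at -0.11 ± 0.38 and Hspg2 at -0.52 ± 0.26. The slope was higher in 3 of the 4 KO libraries at 15 months than in any KO library at 2 months, so slope and age cannot be fully told apart here.

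**Figure D4:**
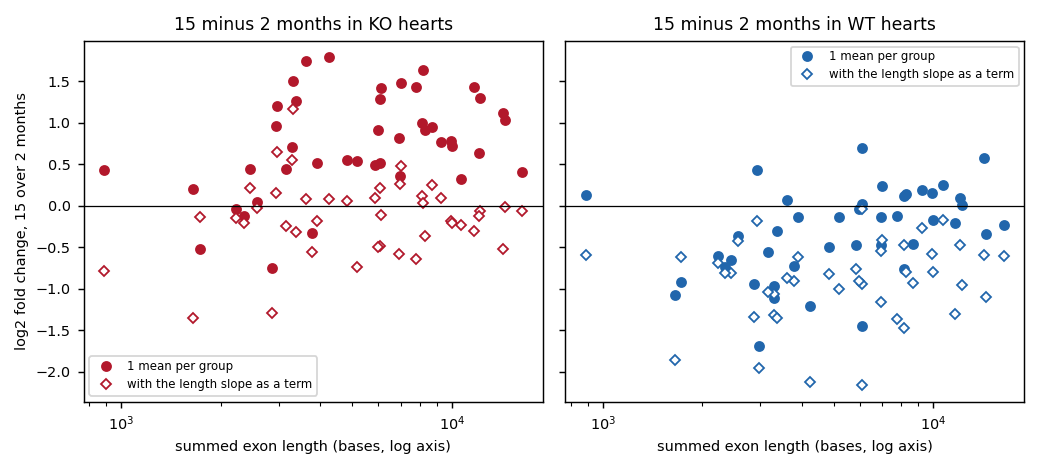
Log2 fold change, 15 over 2 months, of each of the 43 genes against its exon length (bases, log axis), in KO hearts on the left and WT hearts on the right; filled points are from 1 mean per group, open points from the fit with the length slope as a term. In KO hearts the filled points have a median of 0.77 and the open ones of -0.13; in WT hearts the medians are -0.23 and -0.82.

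In WT hearts most values with age lay below 0, and 1 gene fell. Comparing 15 with 2 months in WT, 14 members were above 0 and 29 below, with a median of -0.23 (all genes tested, -0.02). Without WT replicate 1 at 2 months, 30 were above 0 and 13 below, and the median was 0.28. With the length slope as a term and all libraries, 43 were below 0, with a median of -0.82. With the length slope and without that library, 6 were above 0 and 37 below, with a median of -0.45. Sparc was the only member called by edgeR's quasi-likelihood test with Benjamini-Hochberg adjustment, 2.33% of the 43 against 1.04% of all genes. An unadjusted p under 0.05 was reached by 9 members, 20.9% against 23.8% of all genes. By limma voom Sparc alone was called, where 0.979% of all genes were, and by DESeq2 Sparc and Dpt, where 7.08% were. Sparc and Dpt were lower in every aged WT library than in every young one, 4.65% of the members against 7.57% of all genes, and no member was higher in every aged library, where 8.60% of all genes were.

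Sparc encodes a collagen-binding matricellular protein that helps procollagen to be processed outside the cell, and lies on chromosome 11 at bases 55394500 to 55423183 of GRCm38, on the minus strand. It was at 175, 152, 188 and 236 CPM in WT hearts at 15 months, against 336, 274 and 324 CPM at 2 months. The means were 188 ± 35.5 CPM at 15 months (SD, n = 4) and 311 ± 32.9 CPM at 2 months (SD, n = 3), and the highest aged library was below the lowest young one. Sparc fell by 0.73 ± 0.16 on the log2 scale (SE; edgeR quasi-likelihood adjusted p = 0.0430). KO hearts had 193, 237, 250 and 244 CPM at 15 months, against 293, 265 and 310 CPM at 2 months, again without overlap, at -0.32 ± 0.16 (SE; edgeR quasi-likelihood adjusted p = 0.202). The difference between the genotypes in this change was 0.41 ± 0.22, with an adjusted p of 0.9999 by edgeR's quasi-likelihood test. Without WT replicate 1 at 2 months, Sparc in WT hearts was at -0.66 ± 0.18 with an edgeR quasi-likelihood adjusted p of 0.0593. The call was lost in 14 of 25 other settings, with edgeR adjusted p of up to 0.141. Those were fitting only the groups compared, the replicate block (edgeR adjusted p = 0.0590), leaving out the libraries with atrial transcripts, and leaving out 1 library in 11 of 14 cases. The 3 libraries without which the call was kept were KO replicates 1 and 3 and WT replicate 4 at 15 months. With the length slope as a term it was at -0.91 ± 0.15 with an adjusted p of 0.0096 by edgeR.

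Dpt, which encodes dermatopontin and lies on chromosome 1 at bases 164796644 to 164824266, was at 45.3, 61.4, 62.3 and 75.4 CPM in WT hearts at 15 months, against 142, 112 and 91.1 CPM at 2 months. All aged libraries were below all young ones, at -0.91 ± 0.24 on the log2 scale (SE; edgeR quasi-likelihood adjusted p = 0.0790). In KO hearts it was at 99.7, 61.3, 46.1 and 57.0 CPM at 15 months, against 108, 76.2 and 99.7 CPM at 2 months, where KO replicate 1 overlapped the young hearts. Ccn2 was at 40.2, 27.5, 75.5 and 32.8 CPM in WT hearts at 15 months, against 98.8, 48.6 and 107 CPM at 2 months, and aged replicate 3 lay within the young range. Its log2 fold change was -0.95 ± 0.39 in WT hearts and -0.75 ± 0.39 in KO hearts. The immediate early genes, which respond to handling of tissue, summed to 66.3, 42.6, 82.1 and 51.5 CPM in WT hearts at 15 months, against 222, 59.6 and 158 CPM at 2 months, with the highest values in the 2 young WT libraries that were also highest for Ccn2. Their part in the level of Ccn2 was not tested.

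Lamb2 was the member with the largest value above 0 in aged WT hearts. It was at 316, 168, 309 and 283 CPM at 15 months, against 218, 142 and 139 CPM at 2 months, and WT replicate 2 was the aged library within the young range. On the log2 scale it was at 0.69 ± 0.31 (SE; edgeR quasi-likelihood adjusted p = 0.192). The basement membrane group had 6 of 9 genes above 0 (median 0.14), whereas all 5 fibroblast genes were below 0 (median -0.61). Among the latter, Meox1 was at -0.61 ± 0.23, Tcf21 at -0.74 ± 0.37 and Pdgfra at -0.17 ± 0.37. Without WT replicate 1 at 2 months, Pdgfra was at 0.33 and Tcf21 at -0.39. With the length slope as a term and all libraries, both groups were wholly below 0, with Lamb2 at -0.04. Of the 7 proteoglycans 5 were below 0, including Lum at -0.65 ± 0.30 and Dcn at -0.48 ± 0.27. Of the 15 matricellular genes 12 were below 0. Fn1 was at -0.20 ± 0.52 and Postn at -0.46 ± 0.37, while Thbs1, Thbs4, Comp and Spp1 were at -1.45 ± 0.58, -0.97 ± 0.38, -1.69 ± 0.97 and -1.08 ± 0.83. Without WT replicate 1 at 2 months, those 4 genes were at -0.65, -0.24, 1.63 and 1.27. Mmp2 was at -0.30 ± 0.48, Timp1 at 0.13 ± 0.69, Ltbp1, which anchors latent TGF-beta in the matrix, at 0.25 ± 0.24, and Lama2 at -0.23 ± 0.26.

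**Figure D5:**
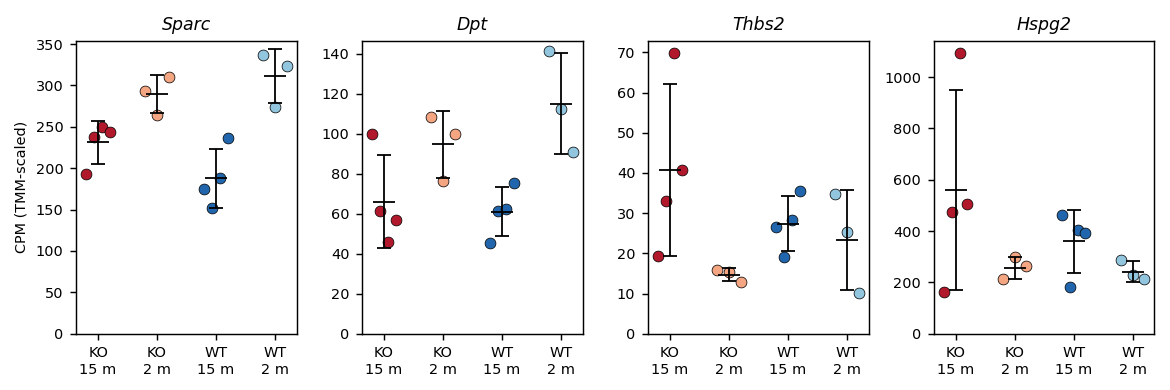
Level (CPM) of Sparc, Dpt, Thbs2 and Hspg2 in each library, with bars of the mean ± SD of the group (n = 4 at 15 months and n = 3 at 2 months). Sparc is lower in aged than in young hearts of both genotypes, and the aged KO hearts spread most for Thbs2 (19.3 to 69.9 CPM) and Hspg2 (163 to 1095 CPM).

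The KO effect was compared between the ages with the difference of the 2 fold changes, which uses all 4 groups. It was above 0 for 42 of the 43 genes, Lamb2 being the exception at -0.18 ± 0.43, and its median was 0.95 (all genes tested, 0.0051). By edgeR's quasi-likelihood test with Benjamini-Hochberg adjustment 0 members were called, as were 0% of all genes, and 11 members had an unadjusted p under 0.05, 25.6% against 3.72% of all genes. Leaving out WT replicate 1 at 2 months left 3 such members, 6.98% against 2.89% of all genes. DESeq2 and limma voom called 0 members as well, and 0.00644% and 0% of all genes. The smallest p belonged to Smoc2, with a difference of 0.83 ± 0.25 (SE; edgeR quasi-likelihood adjusted p = 0.9999). Smoc2 had higher values in KO than in WT hearts at 15 months and lower ones at 2 months, and its difference without WT replicate 1 was 0.90 ± 0.26. Thbs1 had a difference of 2.74 ± 0.85, Thbs4 of 1.67 ± 0.55, Postn of 1.40 ± 0.54 and Fn1 of 1.63 ± 0.75. Without WT replicate 1 these 4 were at 1.95, 0.95, 0.81 and 0.80, and the median of the 43 genes was 0.51 with 36 above 0. Comp, at 2.89 ± 1.51 with all libraries, was at -0.41 ± 1.05 without it. Dcn was at 0.97 ± 0.38, Lum at 1.09 ± 0.42, Mmp2 at 1.56 ± 0.69, Lama2 at 0.64 ± 0.36, Ltbp2 at 2.39 ± 1.19, Gsn at 1.004 ± 0.52, Pdgfra at 0.89 ± 0.52, Tcf21 at 0.62 ± 0.53, Ccn2 at 0.20 ± 0.55, Spp1 at 1.29 ± 1.2595 and Timp1 at 0.30 ± 0.97.

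Lists of genes that act with these members were counted in the same fit. The 16 collagens were at a median log2 fold change of 0.61 at 15 months and -0.67 at 2 months for KO against WT, and of 0.68 and -0.53 for 15 against 2 months in KO and in WT hearts. None of them was called by edgeR in any of these comparisons. The same libraries stood apart for the collagens, which summed to 320, 983, 1575 and 794 CPM in KO hearts at 15 months, against 662, 290, 722 and 735 CPM in WT hearts. At 2 months they summed to 602 to 650 CPM in KO hearts, against 1137, 700.2 and 551 CPM in WT hearts. Their medians without WT replicate 1 at 2 months were -0.13 for the KO effect at that age and 0.05 with age in WT hearts. Without KO replicate 3 at 15 months they were 0.25 for the KO effect at that age and 0.33 with age in KO hearts. The 21 genes of the TGF-beta pathway were at 0.19 at 15 months and -0.17 at 2 months for the KO effect, and at 0.37 and 0.11 with age in KO and in WT hearts, with 0 called. Of the 22 matrix receptors, 1 was called, Sdc4 (syndecan 4), which fell with age in KO hearts at -1.17 ± 0.24 (SE; edgeR quasi-likelihood adjusted p = 0.0266), a call that was lost without KO replicate 3 at 15 months. The 16 other matrix proteases and inhibitors had 0 called, with medians of 0.08 at 15 months and -0.23 at 2 months for the KO effect, and of 0.32 in KO and -0.24 in WT hearts with age. The KO effect at 15 months without KO replicate 3 had medians of 0.06 for the TGF-beta pathway and -0.02 for these proteases and inhibitors, and at 2 months without WT replicate 1 of -0.08 and -0.09. Among the 8 smooth muscle and mural cell markers, Acta2 (smooth muscle actin) fell with age in KO hearts at -1.31 ± 0.29 (SE; edgeR quasi-likelihood adjusted p = 0.0372), a call also lost without KO replicate 3 at 15 months, and no marker of the 8 other marker lists was called.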

How the data were processed

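RNA was measured in 14 libraries from whole mouse hearts. The values deposited by the authors are unnormalized counts, 1 whole number for each Ensembl gene and library. Per the labels' protocols, ribosomal RNA was removed and a stranded total RNA kit was used. Per the submitters' processing notes, GRCm38 was the build, with STAR 2.7.3a, cutadapt 1.16, DESeq2 1.26.0 and featureCounts 1.6.3. Neither strand setting nor annotation release is given in the sources used here, so reads of overlapping genes on opposite strands could have been shared, as for Timp3 and Syn3 (1733 exon bases in common) or Ccn2 and Gm15270 (665). Symbols, positions and exon lengths came from GENCODE M21, which held 55227 of the 55487 identifiers.

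The test across genes was run in R 4.3.3 with edgeR 4.0.16: filterByExpr (minimum count 10, minimum total 15), TMM scaling, 1 mean per group over all 14 libraries, robust quasi-likelihood F-tests for 5 contrasts, and Benjamini-Hochberg adjustment over 15528 genes with a threshold of 0.05. An SE was taken as the absolute log2 fold change over the square root of its F statistic. Total counts of 20218992 to 30404416 set the counting precision, and there were no molecular identifiers. No pair of libraries agreed within sampling noise.

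The members, the 13 other lists and the naming rule were chosen with earlier results of these data known. The naming rule took, in each contrast, every member called, the member with the smallest p in each of 6 role groups, and 12 fixed members. Further members were named where groups did not overlap, after their values were seen. Alternatives were RLE size factors, 2 other filters, DESeq2 1.42.0, limma voom (limma 3.58.1), only the groups compared, a replicate block, the length slope, no mitochondrially encoded genes, and leaving out each library. After the data were seen, 2 were added: the length slope without WT replicate 1 at 2 months, and leaving out the 5 libraries with over 10 CPM of atrial markers. Every count column had a sample.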

Additional observations from a re-analysis of the deposited data

Results flagged for a closer look

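In the groups of 4 libraries at 15 months, 6 of 88 sets of values had 1 library whose gap to the next was over Dixon's critical share of the whole range. Chance flags about 1 in 20 such sets. Fmod stood out in both genotypes, at 3.88 CPM in KO replicate 1 against 0.673 to 1.08 CPM in the other KO hearts, and at 9.42 CPM in WT replicate 3 against 0.405 to 0.936 CPM in the other WT hearts. WT replicate 3 was also apart for Prelp, another small proteoglycan, at 45.6 CPM against 13.02 to 18.5 CPM. Ltbp2 was at 6.38 CPM in KO replicate 3 against 1.91 to 2.65 CPM in the other KO hearts. Lamc1, the laminin chain shared by most basement membranes, was at 60.4 CPM in WT replicate 2 against 127 to 130 CPM in the other WT hearts. Meox1 was at 12.2 CPM in WT replicate 4 against 6.76 to 7.15 CPM in the other WT hearts.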

How the results depend on the processing

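With groups of 3 and 4 libraries and 1 WT library that stood apart at 2 months, the values of single members moved with the libraries used. Of 2114 values of named members under other settings, 1975 kept direction and side of the threshold, 98 turned in direction, 27 passed the threshold and 14 lost it. Of those 14, all were Sparc with age in WT hearts, which kept its direction in all 25 settings, at -0.91 to -0.64, with an adjusted p of 0.000671 (DESeq2) to 0.141 (without WT replicate 1 at 15 months) and 11 settings under the threshold. For KO against WT at both ages, 0 members were called under all 25 settings, and for the difference of the KO effects under all 24. The cause of the changes below was not tested, except that a fit with fewer libraries has less data.

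Filters and tools changed mainly the counts. Without a filter, 3 genes were called for KO against WT at 2 months. With a mean CPM of at least 1, 2 genes were called for KO against WT at 2 months. Under limma voom, Timp1 was at 0.24 for KO against WT at 2 months.

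DESeq2 gave higher counts. By it, 7 genes were called for KO against WT at 2 months. 7 genes were called for KO against WT at 15 months. 1622 genes were called and 7 members were called for 15 against 2 months in KO. 1100 genes were called and 2 members were called for 15 against 2 months in WT. 1 gene was called for the difference of the KO effects. Next, only the groups compared were fitted. 2 genes were called for KO against WT at 15 months. 134 genes were called and 1 member was called for 15 against 2 months in KO. 86 genes were called and 0 members were called for 15 against 2 months in WT.

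A replicate block, with the replicate number as a term, is not a paired design here. Same-numbered KO and WT hearts had correlations of their deviations of -0.09, -0.07 and 0.38 at 2 months and -0.49, -0.33, 0.17 and 0.28 at 15 months, and 4 of 14 samples correlated best with their own number. Timp1 was at 0.17 for KO against WT at 2 months. Spp1 was at 0.037 for KO against WT at 15 months. 70 genes were called and Spp1 was at -0.12 for 15 against 2 months in KO. 55 genes were called, 0 members were called and Timp1 was at -0.084 for 15 against 2 months in WT. Sparc in WT hearts had an adjusted p of 0.0590 with the block by edgeR.

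With the length slope of each library as a term, the direction of several members turned. 4 genes were called and Timp1 was at 0.092 for KO against WT at 2 months. Timp1 was at -0.11 for KO against WT at 15 months. 61 genes were called, the members' median was -0.13, Bgn was at -0.11, Fn1 at -0.30, Spp1 at -1.35, Lama2 at -0.062, Timp1 at -0.79 and Pdgfra at -0.21 for 15 against 2 months in KO. The members' median was -0.82, Lamb2 was at -0.038, Ltbp1 at -0.18 and Timp1 at -0.59 for 15 against 2 months in WT. Timp1 was at -0.20 for the difference of the KO effects.

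The length slope was also fitted without WT replicate 1 at 2 months. 3 genes were called, Spp1 was at 0.83 and Timp1 at 0.98 for KO against WT at 2 months. Timp1 was at -0.017 for KO against WT at 15 months. 92 genes were called, the members' median was -0.043, Dpt was at 0.047, Fn1 at -0.12, Spp1 at -0.30, Lama2 at -0.14, Timp1 at -0.39, Pdgfra at -0.067 and Tcf21 at 0.0074 for 15 against 2 months in KO. 79 genes were called, Lamb2 was at -0.037, Ltbp1 at -0.054, Comp at 2.08 and Spp1 at 0.81 for 15 against 2 months in WT. The members' median was 0.42, Ltbp2 was at -0.30, Comp at -0.44, Spp1 at -1.10 and Timp1 at -0.9995 for the difference of the KO effects.

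Leaving out the 5 libraries with atrial transcripts left 1 WT library at 15 months, which is assumed to vary like the other groups. Apart from its part in the counts over settings above, only effect sizes are given for this fit. The members' median was -0.038, Ltbp2 was at 0.057, Spp1 at 0.94, Timp1 at 1.14 and Pdgfra at 0.035 for KO against WT at 2 months. Ltbp1 was at -0.14, Postn at -0.12, Spp1 at 0.43 and Tcf21 at -0.38 for KO against WT at 15 months. 4431 genes were called and 27 members were called for 15 against 2 months in KO. 1543 genes were called, 5 members were called, the members' median was 0.45, Lum was at 0.35, Mmp2 at 0.98, Fn1 at 1.19, Postn at 0.51, Thbs1 at 0.0057, Comp at 2.75, Spp1 at 0.94, Dcn at 0.16, Timp1 at -0.64, Pdgfra at 0.67 and Tcf21 at 0.048 for 15 against 2 months in WT. The members' median was 0.42, Ltbp2 was at -0.56, Comp at -1.82, Spp1 at -0.51, Ccn2 at -0.65 and Tcf21 at -0.20 for the difference of the KO effects.

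Leaving out each library in turn gave ranges. Across those fits for KO against WT at 2 months, the lowest and highest were the members' median -0.66 to -0.043, Ltbp2 -3.03 to 0.053, Spp1 -1.89 to 0.94, Timp1 -0.48 to 1.14 and Pdgfra -0.78 to 0.029. Likewise for KO against WT at 15 months, the lowest and highest were genes called 1 to 3, Tcf21 -0.029 to 0.27, Postn -0.10 to 0.44, Timp1 -0.13 to 0.56, Comp -0.94 to 0.19, Ccn2 -0.56 to 0.012 and Spp1 -0.35 to 0.10. Likewise for 15 against 2 months in KO, the lowest and highest were genes called 49 to 3523, members called 0 to 16, Tcf21 -0.35 to 0.11 and Spp1 -0.22 to 0.61. Likewise for 15 against 2 months in WT, the lowest and highest were genes called 38 to 796, members called 0 to 2, the members' median -0.45 to 0.28, Mmp2 -0.62 to 0.28, Fn1 -0.51 to 0.65, Postn -0.74 to 0.15, Comp -2.41 to 1.63, Spp1 -1.55 to 1.27, Pdgfra -0.48 to 0.33 and Timp1 -0.23 to 1.38. Likewise for the difference of the KO effects, the lowest and highest were the members' median 0.51 to 1.15, Ltbp2 -0.19 to 2.89, Comp -0.41 to 3.62, Spp1 -1.05 to 1.77, Timp1 -0.94 to 0.67, Ccn2 -0.042 to 0.62 and genes called 0 to 1. The largest count with age in KO hearts came without KO replicate 1 at 15 months.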
